A study of Homo sapiens with 4 samples.

Results

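The transcripts of 10 receptor tyrosine kinases, FGFR1, FGFR2, FGFR3, FGFR4, EGFR, ERBB2, ERBB3, MET, IGF1R and INSR, were followed in 2 colon cell lines with and without sturgeon chondroitin sulfate (SCS). The 10 were chosen by gene symbol, out of 21530 named genes with a value above 0 in at least 1 library, and all 10 were detected and passed the filter on low values. HT-29 cells derive from a human colorectal adenocarcinoma, and NCM460 is the line that the study used for normal colon epithelium. Each line was sequenced without SCS (control) and after 24 h with 100 μg/mL SCS. With 1 library for each of the 4 conditions, a difference between conditions has no replicate check, and no p-value is given for any pair of libraries.

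Receptor tyrosine kinases span the cell membrane, bind a ligand outside the cell and phosphorylate one another and their adaptors inside it, which starts signalling through RAS and ERK and through PI3K and AKT. EGFR and its relative ERBB3 answer to EGF-like ligands and can pair with ERBB2, MET to hepatocyte growth factor, the FGFRs to fibroblast growth factors, and IGF1R and INSR to insulin and the insulin-like growth factors. In the colon, EGFR ligands drive the renewal of the crypt epithelium, and antibodies against EGFR are used against colorectal cancer. Sulfated glycosaminoglycans are known partners of fibroblast growth factors and of their receptors at the cell surface.

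The libraries held from 1156567 to 1654764 fragments assigned to named genes, and the mitochondrial genome took 35.8% (control) and 13.8% (SCS) of them in HT-29 and 62.3% and 46.3% in NCM460 cells. The share was thus lower with SCS in both lines, and TMM factors from nuclear fragments alone gave the same counts of receptors called. Nuclear fragments numbered 1061700 (control) and 1383424 (SCS) for HT-29 and 507692 (control) and 621582 (SCS) for NCM460. A given CPM thus rests on fewer fragments in NCM460 cells, although FGFR1 and FGFR4 had more fragments there than in HT-29 cells. Levels are given as fragments, as CPM, which is fragments scaled to the TMM-adjusted library size, or as the deposited FPKM, which is also per length. Log2 fold changes come from CPM with a prior count of 2. The 95% intervals are exact Clopper-Pearson intervals that cover counting error only. A gene was called higher or lower when it differed by over 1.5-fold and its interval excluded no change. Since each library is a bulk sample, fewer cells with a transcript and less transcript per cell cannot be told apart. Of 12 colon epithelium markers, 8 were above 3 fragments in both HT-29 libraries and 6 in both NCM460 libraries. EPCAM, CDH1, KRT8, KRT18 and KRT19 were detected in both lines, whereas KRT20, VIL1 and LGALS4 were at 0 in both NCM460 libraries and CDX2 was at 0 in both HT-29 libraries. The 10 markers of mesenchymal and blood cells summed to 5.87 to 39.8 CPM per library, and COL3A1, COL1A2, CDH2 and PTPRC were at 0 in all 4.

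Levels per length were compared first, within each library. In the HT-29 control the order from high to low was ERBB3 (69.9 FPKM), ERBB2 (47.7), MET (44.5), EGFR (20.7), IGF1R (17.9), FGFR1 (14.5), INSR (6.32), FGFR4 (4.22), FGFR3 (3.50) and FGFR2 (3.27 FPKM). Counting intervals of neighbours in this order overlapped in 6 of 9 pairs, and the gaps lay between ERBB3 and ERBB2, between MET and EGFR and between FGFR1 and INSR. In the NCM460 control the order was ERBB3 (150.9 FPKM), ERBB2 (102.7), FGFR1 (72.6), FGFR4 (23.3), MET (20.1), EGFR (16.9), IGF1R (16.3), INSR (12.0), FGFR3 (7.91) and FGFR2 (2.23 FPKM). There, too, 6 of 9 neighbouring pairs overlapped, and FGFR4, MET, EGFR, IGF1R, INSR and FGFR3 formed a run without a gap. FGFR1 stood at rank 6 in both HT-29 libraries and at rank 3 in both NCM460 libraries. Its fragments and FPKM imply a transcript length of 910.5 to 1995 bases, where the longest annotated FGFR1 transcript has 6216, so its place in the order depends on the length behind the FPKM. The value listed for ERBB3 is that of a merged locus, since the table gives the same values to ERBB3, to its neighbour PA2G4 and to RP11-603J24.9, so it cannot be ascribed to ERBB3 alone.

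**Figure D1:**
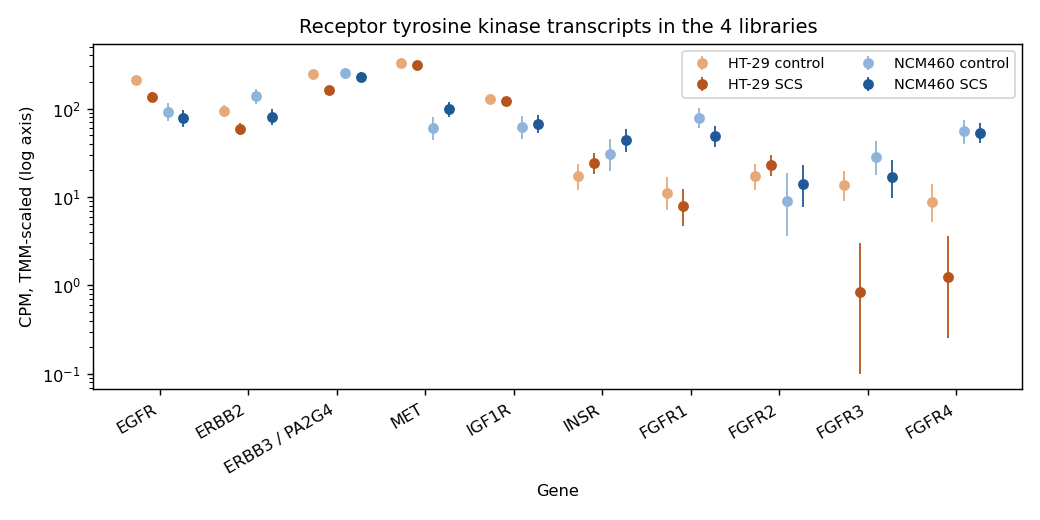
Level of each receptor (horizontal axis) in CPM after TMM scaling (vertical axis, log scale) in the 4 libraries, 1 point per library, with bars for the 95% counting interval. FGFR3 and FGFR4 drop to 0.832 and 1.25 CPM in HT-29 with SCS, while MET stays above 300 CPM in both HT-29 libraries.

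The question whether SCS goes with other receptor levels in the cancer line was addressed by comparing the HT-29 libraries. Of the 10 receptors, FGFR3, FGFR4, EGFR, ERBB2 and the ERBB3 locus were called lower with SCS and none was called higher. Over all 12168 loci tested in HT-29 cells, 14.8% were called lower and 16.8% higher. The median log2 fold change of the 10 was -0.52, against 0.07 for all loci tested. Under scaling by total counts alone, 2 receptors were called lower (FGFR3 and FGFR4) and 2 higher (FGFR2 and INSR). This scaling raised the median of all loci by 0.24.

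FGFR3 and FGFR4, receptors with a tyrosine kinase domain that bind fibroblast growth factors, showed the largest differences of the 10 in HT-29 cells. On GRCh38, FGFR3 is listed at chr4:1793307-1808872 and FGFR4 at chr5:177086886-177098144, both on the plus strand. Their promoters are printed here beside that of MET because FGFR3 and FGFR4 differed most with SCS in HT-29 cells and MET had the highest HT-29 level relative to NCM460 in control. The sequences are from RefSeq (GRCh38.p14, plus strand) and run from 250 bases before to 50 bases after the start annotated there, at chr4:1793043-1793342, chr5:177086665-177086964 and chr7:116671946-116672245. That start is not the gene start listed with the counts. The MET window ends before the listed MET start, chr7:116672390. Capitals mark GGGCGG and its reverse complement CCGCCC, the core of the GC box.
FGFR3 promoter: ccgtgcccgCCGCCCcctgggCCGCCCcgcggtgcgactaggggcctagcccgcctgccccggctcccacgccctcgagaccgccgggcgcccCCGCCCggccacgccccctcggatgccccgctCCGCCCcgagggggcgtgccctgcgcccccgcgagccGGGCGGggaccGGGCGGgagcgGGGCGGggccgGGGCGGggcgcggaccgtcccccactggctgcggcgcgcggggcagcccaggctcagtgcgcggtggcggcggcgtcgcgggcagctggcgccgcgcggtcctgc
FGFR4 promoter: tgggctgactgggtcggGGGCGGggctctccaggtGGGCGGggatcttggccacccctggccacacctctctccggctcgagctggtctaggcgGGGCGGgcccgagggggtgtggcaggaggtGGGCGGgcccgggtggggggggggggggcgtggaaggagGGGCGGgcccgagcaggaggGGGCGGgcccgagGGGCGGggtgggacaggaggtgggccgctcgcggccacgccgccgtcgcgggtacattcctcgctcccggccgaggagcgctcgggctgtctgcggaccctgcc
MET promoter: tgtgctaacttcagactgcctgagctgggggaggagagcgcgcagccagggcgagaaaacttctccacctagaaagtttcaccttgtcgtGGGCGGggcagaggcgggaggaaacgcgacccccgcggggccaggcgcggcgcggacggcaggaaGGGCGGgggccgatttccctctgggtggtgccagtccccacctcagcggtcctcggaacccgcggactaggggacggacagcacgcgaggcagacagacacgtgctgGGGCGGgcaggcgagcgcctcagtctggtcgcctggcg

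The FGFR3 window is 86.3% G or C and holds 8 such matches, that of FGFR4 is 78.7% with 7, and that of MET is 69.3% with 3, where the median promoter of the table is 58.7% G or C. Promoters of 8 of the 10 receptors were matched. Receptors not called with SCS in HT-29 cells had windows about as rich as that of FGFR4. These were IGF1R (79.7% G or C, 2 matches), FGFR2 (79.3%, 5) and INSR (78.3%, 4). EGFR and ERBB2, called lower there, had 75.3% with 3 matches and 60.7% with 0. A high share of G or C thus did not set FGFR4 apart from receptors that were not called. GGGCGG was found, on either strand, in 7 of these 8 (not in ERBB2) and in 45.0% of 35116 promoters of the same length. TATAAA was in 0 of 8 against 11.5%, CCAAT in 2 of 8 (FGFR2 and ERBB2) against 34.6%, and TGACTCA, the AP-1 motif, in 0 of 8 against 4.95%, each on both strands. A match describes the letters of the window and is not evidence of binding.

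For FGFR3, HT-29 cells gave 28 fragments in control and 2 under SCS, and NCM460 cells gave 22 in control and 18 under SCS. In CPM these were 13.7, 0.832, 28.2 and 16.6, so that only HT-29 with SCS lay below the level of 3 fragments (1.25 CPM in that library). The ratio in HT-29 cells was 16.4-fold lower with SCS, with a counting interval of 4.15-fold to 142-fold, and the log2 fold change was -2.83. The NCM460 log2 fold change, -0.72 (-1.75 to 0.20), did not pass the call.

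For FGFR4, HT-29 cells gave 18 fragments in control and 3 under SCS, and NCM460 cells gave 43 in control and 58 under SCS. In CPM these were 8.80, 1.25, 55.2 and 53.6. The ratio in HT-29 cells was 7.05-fold lower with SCS (2.06-fold to 37.4-fold). In NCM460 cells the log2 fold change was -0.04 (-0.64 to 0.56). The deposited FPKM of FGFR4 in HT-29 cells, 4.22 in the control and 1.17 with SCS, gave a log2 fold change of -1.77 whose interval reached 0.01. The study's own list of genes changed with SCS holds FGFR3 and FGFR4, so their direction here is not independent evidence.

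FGFR1 and FGFR2 did not pass the call in HT-29 cells. FGFR1 counted 23 fragments without and 19 with SCS, for a log2 change of -0.45 (-1.46 to 0.43). FGFR2 had 35 and 55, for a log2 change of 0.39 (-0.22 to 1.07). At these depths, smaller differences in the FGFR genes were not detectable.

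EGFR, which binds EGF, TGFA, AREG and EREG, had 432 fragments in the HT-29 control and 329 with SCS, 211 and 137 CPM. It was 1.54-fold lower with SCS, or a log2 change of -0.62 (-0.84 to -0.41), just past the threshold of 1.5. ERBB2, the relative with no known ligand of its own that pairs with the other ERBB receptors, went from 193 to 142 fragments, for a log2 change of -0.66 (-0.998 to -0.355). The ERBB3 locus had 502 and 389 fragments and was 1.51-fold lower, a log2 fold change of -0.60 (-0.79 to -0.41), and subtracting a GC trend took it just under the threshold (-0.58). With total counts only, the log2 fold changes of EGFR, ERBB2 and the ERBB3 locus were -0.35, -0.39 and -0.32, and none of them was called. ERBB2 overlaps PGAP3 and MIEN1, which lie on the other strand with 35 and 33 fragments of their own in the HT-29 control, and the library kit does not mark strand.

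MET, the receptor of hepatocyte growth factor, is listed at chr7:116672390-116798386. It had 680 fragments in the HT-29 control and 741 with SCS, 332 and 308 CPM, or a log2 change of -0.11 (-0.26 to 0.04). This interval leaves out a difference of 1.5-fold in either direction. The insulin-like growth factor receptor IGF1R likewise gave 264 and 291 fragments, for a log2 change of -0.09 (-0.34 to 0.15). The insulin receptor INSR gave 35 and 58 fragments, for a log2 change of 0.47 (-0.13 to 1.15). For these last 2 receptors the deposited FPKM gave other values than the fragments. IGF1R was listed at 17.9 FPKM in the control and 9.66 with SCS, a log2 fold change of -0.89. INSR was listed at 6.32 and 2.18 FPKM, where its log2 fold change was -1.50 and so of the opposite sign. The transcript length that the ratio of INSR fragments to FPKM implies was 3186 bases in the control and 11520 with SCS, where the longest annotated INSR transcript has 8954.

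In NCM460 cells, MET was called higher with SCS and FGFR1 and ERBB2 lower. Over the 12657 loci tested there, 15.4% were called higher and 13.8% lower, and the median log2 fold change was -0.10 for the 10 receptors and 0.03 for all loci. None of these 3 calls was kept after the trend of the fold changes with transcript GC content was subtracted, when FGFR4 alone was called, as higher (0.72). In NCM460 cells the log2 fold change fell with GC content over all loci (Spearman's rho -0.63, across 12228 loci, which are not independent replicates), while in HT-29 cells rho was -0.13. Total counts only gave 4 receptors higher and 0 lower and raised the median of all loci by 0.62. The deposited FPKM gave 0 higher and 4 lower and moved the median of all loci by -0.37.

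MET had 47 fragments in the NCM460 control and 107 with SCS, 60.3 and 98.9 CPM, or a log2 change of 0.70 (0.21 to 1.24). Its transcript is 42.4% G or C, at percentile 25.1 of all loci, and with the GC trend subtracted its log2 fold change was -0.17. The deposited FPKM of MET was 20.1 in the control and 14.1 with SCS. ERBB2, 57.5% G or C, went from 107 to 88 fragments, for a log2 change of -0.75 (-1.18 to -0.34), or -0.12 with the GC trend subtracted. FGFR1 went from 61 to 53 fragments, for a log2 change of -0.66 (-1.24 to -0.12), or -0.43 with the GC trend subtracted.

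The other 7 receptors were not called in NCM460 cells. EGFR had 72 and 85 fragments (log2 fold change -0.23), the ERBB3 locus 196 and 245 (-0.15), IGF1R 48 and 73 (0.13), INSR 24 and 48 (0.51) and FGFR2 7 and 15 (0.56). FGFR3 and FGFR4 have the highest GC content of the 10, 62.0% and 63.6%, at percentiles 90.7 and 94.0, against a median of 48.9% over all loci. With the GC trend subtracted, the log2 fold changes of FGFR3 were -2.80 in HT-29 and 0.03 in NCM460 cells, and those of FGFR4 were -1.98 and 0.72.

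**Figure D2:**
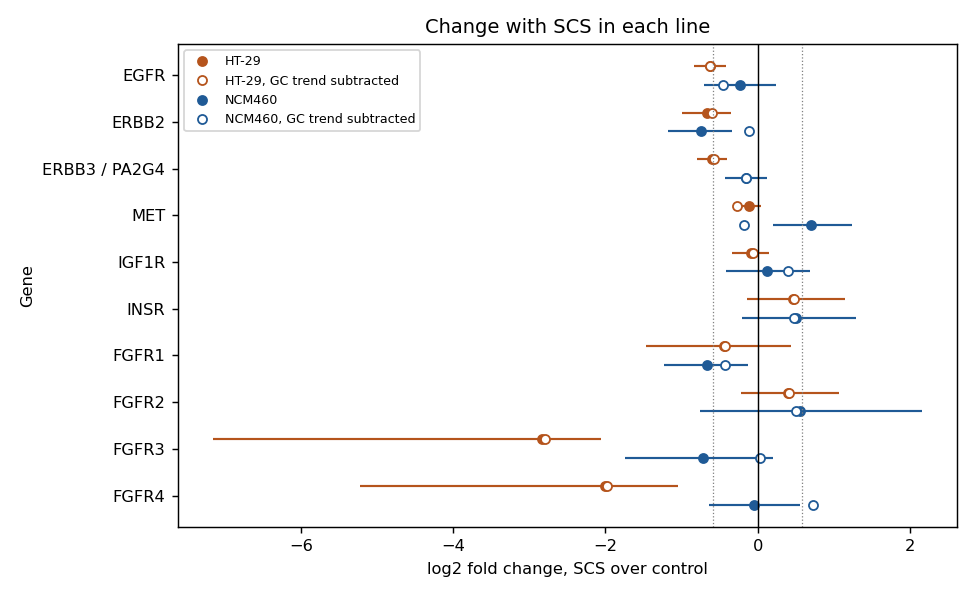
Log2 fold change of SCS over control (horizontal axis) for each receptor (vertical axis) in HT-29 and NCM460 cells, with 95% counting intervals, and the same value after subtraction of the GC trend as open circles. Dotted lines mark 1.5-fold, and in NCM460 cells MET moves from 0.70 to -0.17 and ERBB2 from -0.75 to -0.12 when the trend is subtracted.

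The difference between the SCS changes of the lines was taken for each receptor, HT-29 minus NCM460, with an interval from the counts of all 4 libraries. It excluded 0 for 4 of 10 receptors, FGFR3 at -2.11 (-4.18 to -0.05), FGFR4 at -1.96 (-3.70 to -0.22), MET at -0.81 (-1.32 to -0.29) and the ERBB3 locus at -0.45 (-0.78 to -0.11). The matching share over all loci was not computed, so whether 4 of 10 is more than usual is not known. For EGFR, called lower in HT-29 cells only, the interval included 0 (-0.89 to 0.11), so a difference between the lines was not shown. For ERBB2, called lower in both, the difference was 0.08 (-0.43 to 0.60). With the GC trend subtracted, the interval excluded 0 for FGFR3 (-2.83), FGFR4 (-2.70) and the ERBB3 locus (-0.42), and the difference of MET was -0.10 (-0.62 to 0.41). By deposited FPKM the differences were -2.53 for FGFR3, -1.74 for FGFR4, -0.05 for the ERBB3 locus and 0.41 for MET, and INSR stood at -1.73.

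The baseline of the lines was compared in the control libraries. EGFR, MET and IGF1R were called higher in HT-29 than in NCM460 cells, and FGFR1, FGFR3, FGFR4 and INSR lower. Of the 12691 loci tested, 25.3% were called higher and 23.1% lower, so a call between the lines was more common than a call for SCS. The same 3 receptors were called higher and the same 4 lower between the SCS libraries, where 24.2% of 13050 loci were called higher and 22.4% lower. The median log2 fold changes of the 10 receptors were -0.29 and -0.47, against 0.10 and 0.05 for all loci. The control comparison shares its libraries with the SCS comparisons above. With total counts only, which raised the median of all loci by 1.02 and 0.58, the calls were 5 higher and 2 lower in control and 4 higher and 3 lower under SCS. By deposited FPKM they were 1 higher and 6 lower in both, and that setting moved the median of all loci by -0.52 and -0.38. With fragments thinned to equal depth they were 4 higher and 3 lower in control and 1 higher and 6 lower under SCS. Thinning moved the median of all loci by -0.20 and -0.26.

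MET, FGFR1 and FGFR4 were called in the same direction under each of 10 alternative settings, in control and under SCS alike. MET was higher in HT-29 cells by a log2 fold change of 2.44 (2.03 to 2.92) in control and 1.63 (1.35 to 1.95) under SCS. It stood at 332 and 308 CPM in HT-29 cells and at 60.3 and 98.9 CPM in NCM460 cells. With the GC trend subtracted the values were 1.35 and 1.35. FGFR1, at 11.2 and 7.91 CPM in HT-29 and 78.3 and 49.0 CPM in NCM460 cells, was lower in HT-29 cells by a log2 fold change of -2.67 (-3.56 to -2.09) in control and -2.45 (-3.47 to -1.85) under SCS. FGFR4 was lower in HT-29 cells by a log2 fold change of -2.49 (-3.53 to -1.82) in control, or -1.39 with the GC trend subtracted. Under SCS, with 3 fragments against 58, it was 43.0-fold lower (14.0-fold to 214-fold).

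FGFR3 was lower in the HT-29 control than in the NCM460 control by a log2 fold change of -0.98 (-1.90 to -0.17), but the value was 0.01 with the GC trend subtracted and 0.05 with total counts only. Under SCS, with 2 fragments against 18, FGFR3 was lower in HT-29 cells by between 4.79-fold and 178-fold, the ends of its counting interval, and this was called under all 10 alternatives. EGFR was higher in HT-29 cells by 1.18 (0.83 to 1.57) in control and 0.79 (0.45 to 1.16) under SCS on the log2 scale. By deposited FPKM the EGFR values were 0.29 and -0.24, which were not called. The median of all loci by deposited FPKM was -0.42 in control and -0.33 under SCS. IGF1R was higher by 1.05 (0.62 to 1.54) and 0.83 (0.47 to 1.23), or by 0.14 and 0.20 by deposited FPKM. The calls of EGFR and IGF1R were also lost with the length trend subtracted, in control and under SCS. Thinning to equal depth removed both calls under SCS. INSR was lower in HT-29 cells, at -0.80 (-1.64 to -0.04) and -0.85 (-1.46 to -0.30), but stood at 0.23 in control with total counts only. ERBB2, the ERBB3 locus and FGFR2 were not called in either comparison, with log2 fold changes from -0.54 for ERBB2 to 0.84 for FGFR2 in control. The ERBB2 intervals excluded 0 in both pairs (-0.89 to -0.19 and -0.86 to -0.06), with a fold under the threshold. ERBB2 stayed uncalled under 6 of 10 alternatives in control and 7 under SCS. The ERBB3 locus did so under 8 in each, and FGFR2 under 8 and 9.

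**Figure D3:**
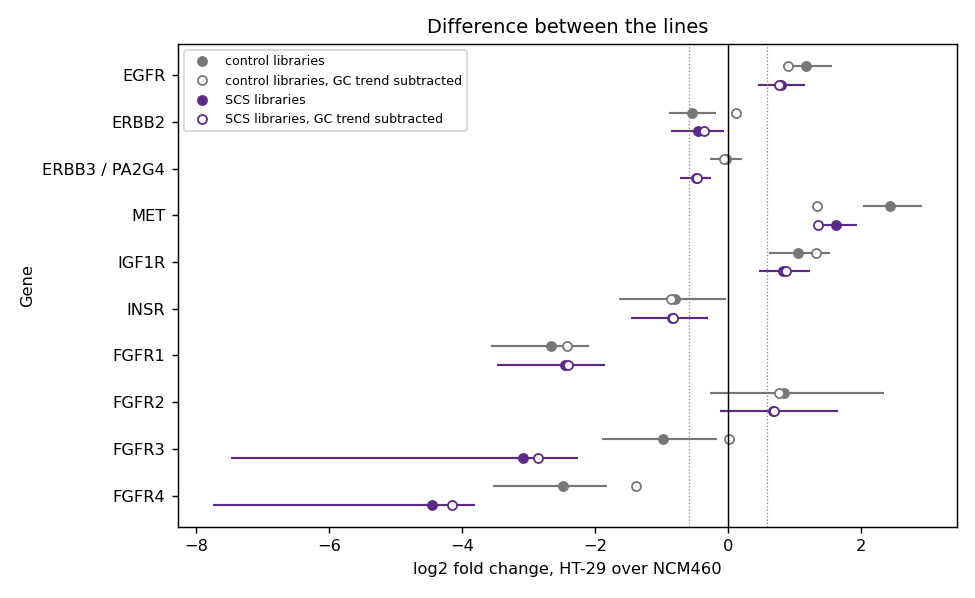
Log2 fold change of HT-29 over NCM460 (horizontal axis) for each receptor (vertical axis) in the control and in the SCS libraries, with 95% counting intervals and GC-subtracted values as open circles. MET, EGFR and IGF1R lie right of 0 and FGFR1, FGFR4 and INSR left of it in both pairs, whereas FGFR3 in control moves from -0.98 to 0.01 with the GC trend subtracted.

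A count model that uses all 4 libraries, with cell line and SCS as additive terms and 1 residual degree of freedom, was fitted with edgeR and DESeq2. At an adjusted p of 0.05, edgeR's quasi-likelihood test called FGFR1, FGFR3, FGFR4 and MET for the line, where 16.2% of 12942 loci were called, and DESeq2 called FGFR1, FGFR4 and MET, where 6.68% were called. For SCS, edgeR called 0 of the 10 receptors, with 1 (FGFR3) at an unadjusted p under 0.05, and 0.0695% of all loci were called. DESeq2 also called 0 of 10 for SCS, with 0 at an unadjusted p under 0.05, and 0.209% of all loci were called. The spread in this model is the difference between the SCS changes of the lines.

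The genes around the receptors were followed by list. Of 23 ligands, 8 were tested in HT-29 cells, of which 3 were called higher with SCS and 2 lower. Amphiregulin (AREG), a ligand of EGFR, rose from 235 to 793 fragments, for a log2 change of 1.51 (1.31 to 1.74). Epiregulin (EREG), another EGFR ligand, had 371 and 771 (0.82, or 0.49 and no longer called after subtraction of the GC trend), and betacellulin (BTC) had 13 and 34 (1.02), which also lost its call then (0.77). Lower were HBEGF, also an EGFR ligand, with 51 and 26 fragments (-1.12), and FGF19, a ligand of FGFR4, with 27 and 10 (-1.41). In NCM460 cells AREG had 93 and 187 fragments (0.53, not called), and EREG, with 53 and 137, was called higher (0.88). FGF19, with 32 and 20 fragments (-1.10), and the IGF2 locus, shared with INS and with 49 and 31 fragments (-1.10), were called lower. None of these 3 calls was kept in NCM460 cells with the GC trend subtracted. HGF and IGF1 were at 0 in all 4 libraries.

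Adaptors carry the signal from the receptors to RAS and PI3K. All 15 were tested in HT-29 cells, and 7 were called higher with SCS and 1 lower, with a median log2 fold change of 0.62. Over all loci 16.8% were called higher and 14.8% lower (15.4% and 13.8% in NCM460 cells), and the HT-29 median was 0.07. GAB2, a docking protein, rose from 7 to 100 fragments, for a log2 change of 3.19 (2.51 to 4.96). The insulin receptor substrates went apart, as IRS2 had 125 and 380 fragments (1.35) and IRS1 had 214 and 60 (-2.01, from -2.50 to -1.65). IRS1 and GRB10 are on the study's own list of changed genes, so their direction is not independent evidence either. GRB10, which binds INSR and IGF1R, had 35 and 146 fragments (1.75). GRB7, SOS1, SOS2 and GAB1 were called higher at 0.95, 0.62, 1.16 and 0.85. In NCM460 cells 2 adaptors were called higher, PTPN11 (44 and 166 fragments, 1.42) and SOS1 (6 and 31, 1.74), and 3 lower, GRB2 (-0.67), GRB7 (-0.88) and GRB10 (-1.02). With the GC trend subtracted, SOS1 (0.32) and GAB1 (0.56) lost their calls, which left 5 higher and 1 lower in HT-29 cells, and 2 higher (GAB2 and IRS2) and 1 lower (GRB10) in NCM460 cells.

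Genes that ERK signalling is known to induce were followed next. In HT-29 cells 2 of 11 were called higher and 4 lower, with a median of -0.23. The shares of all loci were 16.8% higher and 14.8% lower there, and 15.4% and 13.8% in NCM460 cells. EGR1, an immediate early transcription factor, fell from 677 to 149 fragments (-2.39, from -2.68 to -2.16). CCND1, cyclin D1, had 178 and 65 (-1.64), DUSP6, a phosphatase of ERK, had 150 and 93 (-0.90), and DUSP4 had 40 and 28 (-0.69), a call lost with the GC trend subtracted (-0.66). ETV1 was called lower only after that subtraction (-0.80). DUSP5, also a phosphatase of ERK, went the other way with 124 and 340 fragments (1.21), as did the ETV5 locus, which is shared with DGKG, with 91 and 195 (0.85). In NCM460 cells 0 of 12 were called higher and 3 lower, EGR1 (321 and 249 fragments, -0.84, or -0.31, under the threshold, after the GC trend was subtracted), the ETV5 locus (-0.69) and IER3 (-0.77). The highest value there was that of SPHK1, with 4 and 10 fragments (0.72, not called). DUSP5 was called higher in NCM460 cells only with the GC trend subtracted (0.75).

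Among genes of feedback and receptor turnover in HT-29 cells, 4 of 15 were called higher with SCS and 1 lower. Beside these stand 16.8% and 14.8% of all loci (15.4% and 13.8% in NCM460 cells). CBLB, a ubiquitin ligase of receptors, had 19 and 92 fragments (1.91). HGS, RNF41 and USP8, which act in endosomal sorting or receptor ubiquitination, were called higher at 0.78, 0.68 and 0.62 (USP8 not after subtraction of the GC trend, at 0.38), and SPRY1, an inhibitor of RAS signalling, was called lower with 22 and 10 fragments (-1.15). SPRED1 was called lower only after subtraction of the GC trend (-0.86). In NCM460 cells USP8 was called higher (1.56), and CBLC (-0.92), HGS (-0.85) and SOCS3 (18 and 8 fragments, -1.49) lower, of 16 tested. After that subtraction none of these 4 was called, and SPRED2 (-0.72) and RNF41 (-0.89) were called lower. LRIG3 had the highest value among genes of at least 5 CPM, with 2 and 12 fragments, and was not called.

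Co-receptors and binding proteins in HT-29 cells gave 2 calls higher and 4 lower of 12 tested. All loci gave 16.8% higher and 14.8% lower (15.4% and 13.8% in NCM460 cells). The neuropilin NRP1 had 109 and 226 fragments (0.81) and IGFBP1 had 0 and 8. Lower were FGFRL1, a receptor relative without a kinase domain (67 and 27 fragments, -1.44), CD44 (593 and 308, -1.17), the proteoglycan SDC1 (310 and 183, -0.98) and IGFBP4 (81 and 37, -1.29). FGFRL1 was also called lower in NCM460 cells (108 and 47 fragments, -1.65), with IGF2R (-0.59) and IGFBP2 (-1.13), and KLB, the co-receptor for FGF19, was called higher with 0 and 7 fragments. Of these 4, FGFRL1 alone (-0.88) was still called with the GC trend subtracted, when CD44 (-0.72) was called lower and SDC1 (0.74) higher. NRP2, with 8 and 17 fragments (0.56), had the highest value there among genes of at least 5 CPM and was not called. Of 6 proteases and inhibitors, ADAM17, which sheds AREG and TGFA, had 78 and 251 fragments in HT-29 cells (1.42, from 1.08 to 1.84), and the inhibitor SPINT1 had 360 and 666 (0.65). The lowest, ST14, had 552 and 446 (-0.54, not called). In NCM460 cells ADAM10 was called higher (13 and 57 fragments, 1.59) and ST14 (-0.67) and SPINT1 (-0.71) lower. None of these 3 was called with the GC trend subtracted.

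The other receptor tyrosine kinases served as a comparison. Of 48 listed, 29 were tested in HT-29 cells, with 1 called higher and 8 lower and a median log2 fold change of -0.33. Calls over all loci were 16.8% higher and 14.8% lower, and 15.4% and 13.8% in NCM460 cells. The lowest was ROR1, a pseudokinase receptor of WNT5A, which went from 103 to 22 fragments (-2.31, from -3.19 to -1.78). PTK7, AXL, RET, EPHB4, EPHA2, EPHB6 and MST1R were called lower at -1.34, -1.26, -1.08, -1.01, -0.97, -0.61 and -0.60, of which MST1R lost its call with the GC trend subtracted (-0.55). That subtraction added RYK (-0.69) and the ROS1 locus, shared with GOPC (-0.80), to give 9 called lower. MERTK alone was called higher, with 7 and 35 fragments (1.76). In NCM460 cells 1 of 35 was called higher, RYK with 6 and 39 fragments (2.06), and 6 lower. These were PTK7 (92 and 45 fragments, -1.48), TYRO3 (-1.45), EPHA1 (-1.12), DDR1 (-0.88), KDR (6 and 0 fragments) and NTRK2 (6 and 1 fragments). After subtraction of the GC trend RYK (0.75) and EPHA1 (-0.42) were not called, and EPHA2 (0.82) was the one called higher. Then 7 were called lower in NCM460 cells, with ERBB4 (-1.465) and FLT1 (-2.34, 5 and 1 fragments) added. ERBB4, the remaining relative of EGFR, had 14 and 13 fragments in HT-29 and 10 and 11 in NCM460 cells.

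Between the control libraries of the lines, 25.3% of all loci tested were called higher in HT-29 cells and 23.1% lower. There the list of 6 proteases and inhibitors gave 4 calls higher in HT-29 cells and 1 lower, with a median of 1.17, from ADAM10 (2.46) down to FURIN (-0.72). Once the GC trend was subtracted, ADAM10 stood at 0.95, behind SPINT2 (2.23) and ST14 (2.04), and FURIN (0.25) was not called. Of the 12 ERK-responsive genes 1 was called higher, ETV1 with 30 against 3 fragments, and 9 lower, down to IER3 (-2.33), with a median of -1.21. The same subtraction left 0 called higher and 8 lower, with ETV1 at 0.11. Among ligands, EREG was the highest of at least 5 CPM (371 against 53 fragments, 1.40), but stood at -0.21 with the GC trend subtracted. NRG1, which binds ERBB3, had 0 fragments in both HT-29 libraries and 14 and 17 in NCM460 cells, whereas BTC had 0 in both NCM460 libraries. Among binding proteins, IGFBP2 had 138 and 87 fragments in NCM460 cells and 0 in HT-29 cells, and IGFBP4 had 81 and 37 in HT-29 cells and 0 in NCM460 cells. Among the other receptors, EPHB6 was the highest in HT-29 relative to NCM460 cells (258 against 9 fragments, 3.31), and EPHB2 the lowest, with 2 against 34 fragments.

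**Figure D4:**
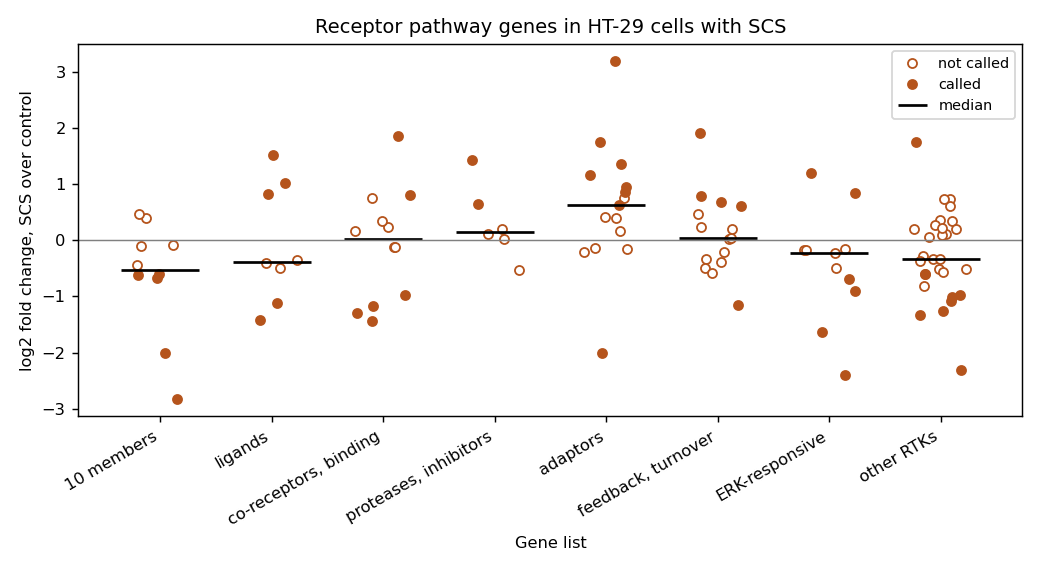
Log2 fold change of SCS over control in HT-29 cells (vertical axis) for each tested locus of the receptor lists (horizontal axis), with filled points for called loci and a line at each list's median. The adaptors have a median of 0.62 and the 10 receptors one of -0.52, and both lists hold loci on either side of 0.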

How the data were processed

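RNA of HT-29 and NCM460 cells, with SCS for 24 h or none, was measured in 1 library per condition, grouped by the submitters' labels. According to the study's methods and labels, RNA was extracted with TRIzol, libraries were made with the NEBNext Ultra kit, and paired ends were sequenced on an Illumina instrument. Low-quality reads and reads holding adapter or poly-N were discarded, and differential expression was run with Cuffdiff. The submitters' processing notes name bcl2fastq 2.17.1.14, cutadapt 1.9.1, Bowtie2, HTSeq 0.6.1 and hg19. The coordinates of the table are those of GRCh38, since 93.6% of the loci found in GENCODE release 29 had the same start and end.

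The authors deposited a count column and an FPKM column for each library. The deposited count values are a signal, fragment counts divided by a library's size factor, although whole counts had been assumed in the design. Division by the worth of 1 fragment (0.686, 0.577, 2.04 and 1.33 in the order HT-29 control, HT-29 with SCS, NCM460 control, NCM460 with SCS) gave whole numbers, within 0.02, for 99.8% of values, and these fragments were used. The deposited FPKM values are scaled by transcript length and library size, and a pseudocount of 0.1 was added to them. Unnamed rows, 26 in number and holding 0.00581% to 0.0352% of counts, were left out. Adjacent rows with identical values were merged into 18650 loci, of which 1812 hold several genes.

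TMM factors (1.24, 1.50, 0.578 and 0.935) were computed with edgeR 4.0.16 in R 4.3.3 over all 4 libraries. Loci averaging 1 CPM or more were compared on the whole table. The level of 3 fragments is 1.47, 1.25, 3.85 and 2.77 CPM in the same order. The additive fits used edgeR's quasi-likelihood test and DESeq2 1.42.0, with Benjamini-Hochberg adjustment. It ran over all loci tested in edgeR and with the default filtering of loci in DESeq2. The shares called are of the 12942 loci tested for both tools. GC content and length are those of the longest GENCODE transcript. Differences between lines used a delta-method interval. All intervals cover counting error only. The method was tested on simulated counts that held counting error only, so variation between cultures was not covered. The planted changes were larger than 1.5-fold. They lay at loci of higher CPM than FGFR3 and FGFR4 in the HT-29 comparison.

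The receptors, lists and settings were chosen with earlier results of these data known. Of each list a comparison describes, the highest and lowest locus averaging 5 CPM or more are named, and called loci may be named. Loci with no GC value, such as DDR1 and IER3, were shifted by a constant in the GC alternative. The alternatives were total counts only, DESeq2's size factors, TMM on nuclear fragments, a prior count of 0.5, the FPKM ratio, lowess trends on GC content or length subtracted (span 0.3), thinning to equal nuclear depth, no filter or 5 CPM, a 2-fold threshold and the edgeR additive fit. Leaving out the ERBB3 locus and the DESeq2 additive fit were added after seeing the data.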

Additional observations from a re-analysis of the deposited data

Results flagged for a closer look

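The 4 receptors FGFR3, FGFR4, ERBB3 and MET stood out because the counting interval of the difference between their SCS changes in the 2 lines excluded 0. HT-29 minus NCM460, on the log2 scale, this difference was -2.11 for FGFR3, -1.96 for FGFR4, -0.45 for the ERBB3 locus and -0.81 for MET. How often this interval excludes 0 over all loci was not computed, so the 4 receptors are not shown to be unusual. The intervals rest on 1 library per condition, and the difference between the lines was not tested over replicates. FGFR3 and FGFR4 rest on 2 and 3 fragments in HT-29 with SCS. MET moved with the GC trend of the NCM460 libraries, and its difference was -0.10 (-0.62 to 0.41) once that trend was subtracted. The value of the ERBB3 locus is shared with PA2G4. By deposited FPKM the difference was -0.05 for the ERBB3 locus and 0.41 for MET. The causes of these differences were not tested.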

How the results depend on the processing

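With 1 library per condition, no replicate could be left out, and the additive fit is the one model that pairs SCS with control within a line. At a 2-fold threshold, 2 receptors were called with SCS in HT-29 cells (FGFR3 and FGFR4), 0 in NCM460 cells and 4 between the lines under SCS. Between the control libraries FGFR1, FGFR4, EGFR, MET and IGF1R passed it. The share of all loci called at 2-fold was not computed, so these counts have no background beside them. The additive fit called 0 receptors for SCS and 4 for the line. Subtracting the GC trend left 1 receptor called in NCM460 cells, and total counts only moved the median of the 10 there to 0.58. Single receptors called under either setting reversed in 12 cases. With total counts only these were FGFR1 with SCS in NCM460 cells (0.0175), FGFR3 (0.0480), INSR (0.23) and the ERBB3 locus (1.05) between the control libraries, and FGFR4 with SCS in NCM460 cells (0.63). With the GC trend subtracted they were MET (-0.17) and FGFR4 (0.72) with SCS in NCM460 cells and FGFR3 between the control libraries (0.0111). With the deposited FPKM they were MET (-0.51) and IGF1R (-0.94) with SCS in NCM460 cells, INSR with SCS in HT-29 cells (-1.50) and EGFR between the SCS libraries (-0.24). The cause was not tested. Of the other results for single receptors under an alternative, 345 kept their side of the threshold (15 of them uncalled and of other sign), 21 came to pass it and 22 no longer did. The fall of FGFR3 with SCS in HT-29 cells was called under all 10 alternatives, with log2 fold changes from -3.61 to -2.37, and that of FGFR4 under 9. Without the ERBB3 locus, 4 receptors were called in HT-29 cells, and 3, 7 and 7 in the other comparisons. Depth limits what can be detected for the FGFR genes, with 2 to 61 fragments per library, and for INSR, with 24 to 58.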
